A study of Mus musculus with 15 samples.

Results

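The inhibitory coreceptors and phosphatases of B cells are described here through 8 genes, out of 19938 genes measured. They are the coreceptor genes Cd22, Cd72, Fcgr2b, Siglecg, Cd5 and Lair1 and the phosphatase genes Ptpn6 and Inpp5d. They were taken by gene symbol from probe sets annotated to a single gene, and each of the 8 had 1 such probe set. Whole-transcript microarrays measured the RNA of B cells sorted from the germinal centres of mouse spleen at day 10 after immunization. All groups share the same design. SwHEL B cells served as donors: their antigen receptor is knocked in and recognises hen egg lysozyme, and they carry the CD45.1 marker. They were transferred into C57BL/6J recipients, which carry CD45.2, and the antigen was the lysozyme mutant HEL3x coupled to sheep red blood cells. The labels give the mice as female and state no age. Donor germinal centre cells were gated as CD45.1+, CD45.2-, IgG1+ and CD38 low. High CD86 with low CXCR4 defined light zone cells, and the reverse defined dark zone cells.

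Both zones were further sorted by affinity. The dark zone gave 4 high-affinity samples, called DZ_high, and 4 low-affinity samples, called DZ_low. The light zone gave 3 high-affinity samples (LZ_high) and 4 low-affinity ones (LZ_low), with 1 array per sample. Replicates are named by their title numbers, and LZ_high has replicates 1, 2 and 4. All cells come from a single knocked-in receptor, so the groups do not represent a natural repertoire. The labels do not say whether the arrays came from separate mice, so p-values reflect only the spread among these samples, which may be technical. Sample descriptions carry an experiment code, and forms that differ in their last number were joined into 4 codes, called A to D. Code B has 1 form in the dark zone samples and another in the light zone samples, and code D occurs in every group but LZ_high. All levels below are RMA values on the log2 scale. Levels of different genes are not compared, since probe sets differ in brightness. Array medians lay between 5.57 and 5.74. The number of arrays limits the precision. Of the sort marker genes, Cd86 was at 1.04 ± 0.11 and Cxcr4 at -0.69 ± 0.16 in light zone relative to dark zone cells. Cd86 passed limma (adjusted p = 0.00255), while Cxcr4 did not (adjusted p = 0.152). Cd86 was also lower in DZ_high than in DZ_low cells, without passing limma, as given with that comparison. The germinal centre B cell markers had a mean level of 9.63 to 10.27 per array.

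The inhibitory coreceptors of B cells carry a tyrosine-based inhibitory motif, or a related one, in their cytoplasmic tail. When the antigen receptor is engaged, kinases such as LYN phosphorylate that motif, which then recruits the tyrosine phosphatase SHP-1 (encoded by Ptpn6) or the inositol phosphatase SHIP-1 (encoded by Inpp5d). These phosphatases remove phosphate from signalling proteins or from the membrane lipid PIP3 and so damp calcium and kinase signals. In germinal centres, light zone B cells meet antigen on follicular dendritic cells and receive help from T cells, while dark zone cells divide and mutate their receptor genes.

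The promoters of Cd72, Ptpn6 and Cd22 are shown because these are the members with the clearest difference between zones. Each run is the 250 bases before 1 annotated start in RefSeq, build GRCm38.p6, read 5′ to 3′ on the gene's own strand. The positions are chr4:43454627-43454876, chr6:124738710-124738959 and chr7:30879029-30879278, all on the minus strand. The runs of Cd72 and Cd22 lie inside the annotated genes, which reach to chr4:43455102 and chr7:30880342. For these genes the bases before the outermost annotated end are not shown. Capitals mark matches to GGAAGT, the core that ETS family factors such as PU.1 recognise, or to the longer PU.1 form GAGGAAGT, which contains it, on either strand.
Cd72: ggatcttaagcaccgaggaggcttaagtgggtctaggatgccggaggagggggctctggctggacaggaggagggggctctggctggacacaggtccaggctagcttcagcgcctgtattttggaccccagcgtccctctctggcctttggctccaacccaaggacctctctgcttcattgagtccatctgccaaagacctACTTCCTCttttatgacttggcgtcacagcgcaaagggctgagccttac
Ptpn6: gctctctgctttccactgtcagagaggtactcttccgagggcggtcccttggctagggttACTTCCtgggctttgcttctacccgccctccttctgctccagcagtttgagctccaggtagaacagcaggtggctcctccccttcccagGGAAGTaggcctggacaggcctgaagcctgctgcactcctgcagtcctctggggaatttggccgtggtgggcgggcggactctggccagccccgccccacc
Cd22: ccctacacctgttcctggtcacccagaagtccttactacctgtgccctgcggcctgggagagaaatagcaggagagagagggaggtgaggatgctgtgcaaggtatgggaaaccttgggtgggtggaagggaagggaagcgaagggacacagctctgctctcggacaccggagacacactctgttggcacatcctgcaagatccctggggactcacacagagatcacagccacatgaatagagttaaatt
The Cd72 run holds 1 match, to the longer form and on the reverse strand. The Ptpn6 run holds a match to the shorter form on each strand, and the Cd22 run holds none. Over all 8 members, 5 had the shorter form and 3 the longer form in at least 1 of their 9 promoter entries, against 19.7% and 2.44% of 32851 promoters of the same length in the table. The octamer ATGCAAAT and the EGR motif GCGNGGGCG were in 0 of 8, against 1.60% and 4.70% of all promoters. These are matches of letters, not measured sites.

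The first comparison asked how light zone cells differed from dark zone cells over both affinities. Cd72, which encodes a B cell coreceptor that recruits SHP-1, was higher in light zone cells by 1.37 ± 0.17 (standard error) on the log2 scale, a 2.59-fold difference. It was the 1 of 8 members to pass limma over all genes (adjusted p = 0.00476), ranking 7 by p among the 19938 genes. In this comparison 0.155% of all genes passed in either direction and 0.0853% were higher in the light zone. Ptpn6 was at 0.41 ± 0.10 (adjusted p = 0.240) and Cd22 at 0.41 ± 0.12 (adjusted p = 0.430), and neither passed. The median difference of the 8 members was 0.21, with 7 above 0, while that of all genes was -0.01, with 48.0% above 0. The arrays measure RNA of sorted pools, in which fewer cells of a type and less RNA per cell cannot be told apart. At an unadjusted p under 0.05 in limma, 3 members and 873 of all genes differed.

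**Figure D1:**
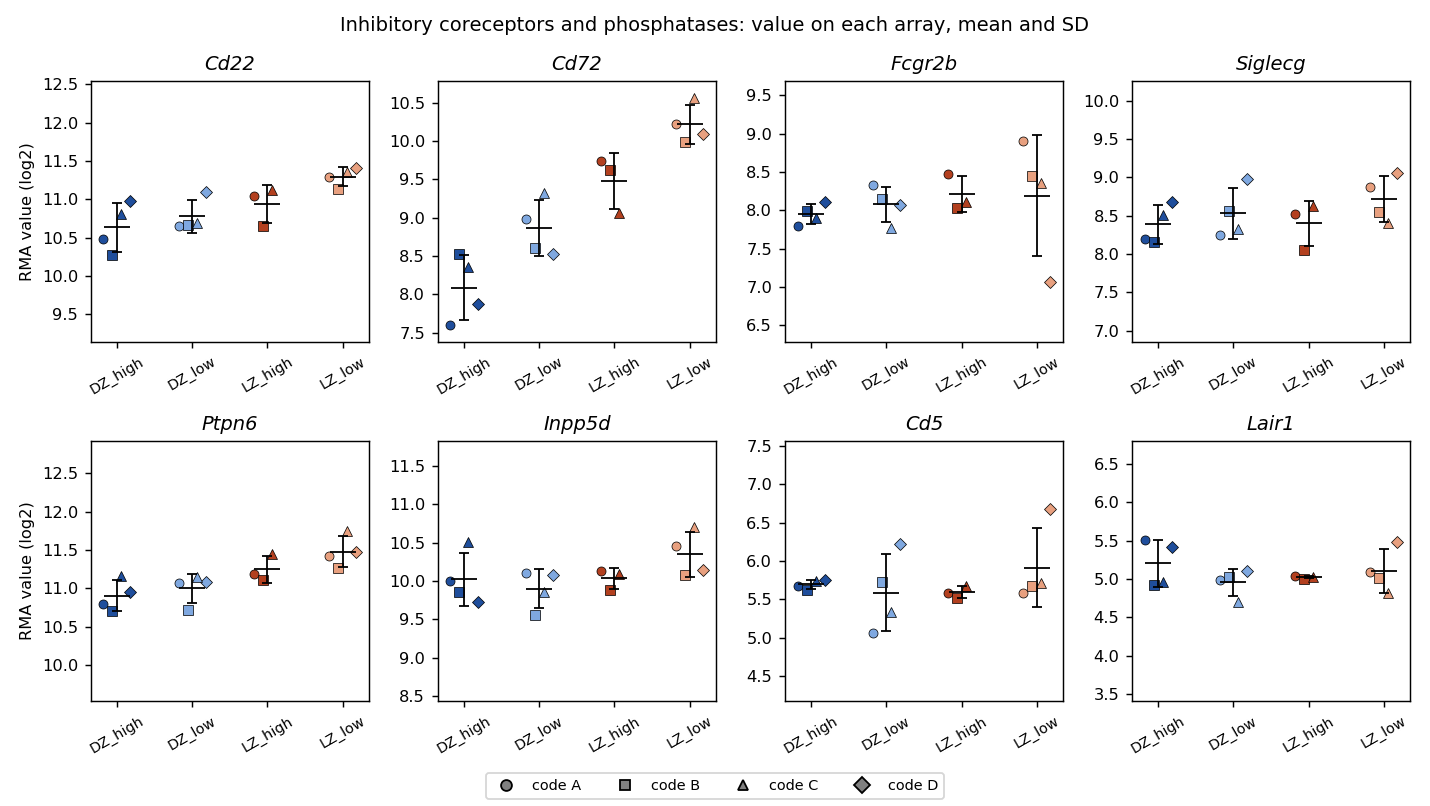
Log2 RMA level of each of the 8 genes on every array, by group, with a horizontal line at the group mean, bars of 1 SD and a symbol for each experiment code. Cd72 steps up from DZ_high through DZ_low and LZ_high to LZ_low, with means from 8.09 to 10.22, while Lair1 lies between 4.70 and 5.51 in all groups.

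The Cd72 level in DZ_high cells was 7.60, 8.53, 8.36 and 7.87 in replicates 1 to 4. In DZ_low cells it was 8.98, 8.61, 8.53 and 9.33. In LZ_high cells it was 9.74, 9.62 and 9.06 in replicates 1, 2 and 4, and in LZ_low cells 10.23, 9.98, 10.10 and 10.56 in replicates 1 to 4. The group means were 8.09 ± 0.43 (SD, n = 4), 8.86 ± 0.37 (n = 4), 9.48 ± 0.36 (n = 3) and 10.22 ± 0.25 (n = 4). Of these neighbours in the order, only DZ_low and LZ_high overlapped, since the highest DZ_low array was at 9.33 and the lowest LZ_high array at 9.06. DZ_high and DZ_low were separated by a gap of 0.006, a margin far below the spread within either group. LZ_high and LZ_low were separated by 0.24. Because of that one overlap, light zone and dark zone arrays did not separate completely. For 0 of the 8 members did they do so, against 0.176% of all genes. Cd72 was among 5 genes, or 0.0251%, whose groups did not overlap in any of the 4 comparisons that change zone or affinity alone. The others were Fcer2a and, named after their values were seen, Gucy2f, Ppl and Vmn2r93. Across all 15 arrays the SD of Cd72 was above that of 98.2% of genes, while for the other members this share was between 48.3% and 78.9%.

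Ptpn6 encodes SHP-1, the phosphatase that most of these receptors share. Its level was 10.79, 10.70, 11.16 and 10.95 in DZ_high replicates 1 to 4, and 11.07, 10.72, 11.08 and 11.14 in DZ_low. In LZ_high cells it was 11.19, 11.11 and 11.45, and in LZ_low cells 11.42, 11.27, 11.48 and 11.75. All 4 LZ_low arrays were above all 4 DZ_low arrays, while the LZ_high range overlapped that of DZ_high. The level of Cd22, which encodes a sialic acid-binding lectin that restrains the B cell receptor, was 10.48, 10.28, 10.81 and 10.98 in DZ_high. It was 10.65, 10.66, 11.10 and 10.70 in DZ_low, 11.05, 10.66 and 11.12 in LZ_high and 11.29, 11.13, 11.41 and 11.36 in LZ_low. The 4 LZ_low arrays of Cd22 were above all other arrays, and the other 3 groups overlapped each other. The 2 genes had means of 10.90 and 10.64 in DZ_high, and 11.48 and 11.30 in LZ_low.

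Arrays of the same experiment code can be compared directly, which removes a shared deviation of the experiment. In the 7 such pairs of a light zone and a dark zone array, Cd72 was higher in the light zone in 7 of 7, by 0.70 to 2.14. Ptpn6 was higher in 7 of 7, by 0.28 to 0.61, and Cd22 in 7 of 7, by 0.31 to 0.66. Fcgr2b and Inpp5d were higher in 6 of 7, Siglecg and Lair1 in 5 of 7 and Cd5 in 3 of 7. Of these pairs, 2 link the unlike forms of code B. The pairs use the same arrays as the fit above. Which share of all genes reaches such counts was not determined, here or for the pairs given below. With the merged code as a block in limma, 3 members passed: Cd72 at 1.33 ± 0.18 (adjusted p = 0.00727), Ptpn6 at 0.42 ± 0.07 (adjusted p = 0.0208) and Cd22 at 0.46 ± 0.08 (adjusted p = 0.0420). In that fit 0.451% of all genes passed. With code B kept as written, only Cd72 passed (adjusted p = 0.0457), and Ptpn6 and Cd22 were at adjusted p = 0.149 and 0.185. The differences in that fit were 0.40 ± 0.08 for Ptpn6 and 0.47 ± 0.10 for Cd22, close to those with the merge. With the replicate number of the titles as a block in place of the code, Ptpn6 passed (adjusted p = 0.0372) and Cd22 did not (adjusted p = 0.0777).

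**Figure D2:**
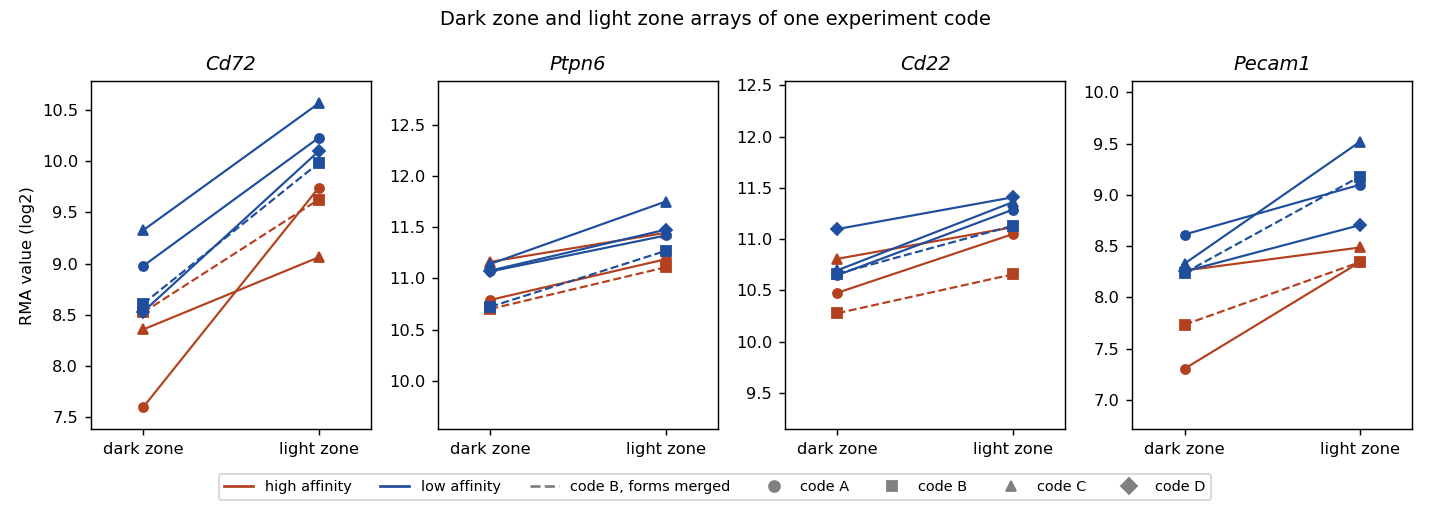
Log2 RMA level of Cd72, Ptpn6, Cd22 and Pecam1 on the dark zone and light zone array of each experiment code, with a line joining the arrays of 1 code and affinity, red for high and blue for low affinity, and dashed for code B. All 7 lines of each gene rise from the dark zone to the light zone, by 0.70 to 2.14 for Cd72 and by 0.28 to 0.61 for Ptpn6.

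The other members showed no difference between zones that passed. Inpp5d, encoding SHIP-1, was at 0.23 ± 0.14. Fcgr2b, which encodes the inhibitory IgG receptor Fc gamma RIIB, was at 0.19 ± 0.21. Its outer part resembles that of Fcgr3, and whether the probes tell them apart was not tested. Siglecg, a relative of Cd22 that also binds sialic acid, was at 0.10 ± 0.15. Cd5, known from T cells and B-1 cells, was at 0.11 ± 0.18, and Lair1, a collagen receptor gene, at -0.02 ± 0.12. Over all arrays the Siglecg level lay between 8.06 and 9.05, that of Inpp5d between 9.55 and 10.71 and that of Lair1 between 4.70 and 5.51, and each group overlapped the others in part. The 95% intervals of these 5 differences reached at most 0.64 in either direction, so a shift of the size of Cd72 lay outside each. Cd5 and Lair1 were also dim probe sets, brighter than 48.3% and 33.3% of genes on average, and the table gives no detection calls. RMA compresses differences of dim probe sets.

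The Fcgr2b and Cd5 values rest partly on 1 array. On LZ_low arrays the Fcgr2b level was 8.91, 8.44, 7.07 and 8.36 in replicates 1 to 4, and replicate 3 was the lowest of all 15 arrays. The Cd5 level was 5.58, 5.68, 6.68 and 5.71, and replicate 3 was the highest of all. On that array, neutrophil markers had a mean level of 9.12 against 4.76 to 7.61 on the other 14 arrays, with 12 of 12 genes highest there. The T cell markers had a mean of 7.20 against 5.09 to 6.29, with 8 of 9 highest there. NK cell markers were at 6.73 against 4.34 to 5.74, with 6 of 7 highest there, and myeloid markers at 6.33 against 4.93 to 5.80, with 6 of 11. B cell markers, at 10.77, lay within the range of the other arrays, 10.23 to 10.84, and germinal centre B cell markers, at 9.63, lay below theirs, 9.83 to 10.27. The part these markers play in the Fcgr2b and Cd5 values was not tested. Cd5 is also expressed by T cells and Fcgr2b by myeloid cells, as background. Fcgr2b was lowest on the array where the neutrophil and myeloid marker means were highest. On DZ_low replicate 3, next highest in neutrophil markers at 7.61, the Fcgr2b level was 8.07.

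**Figure D3:**
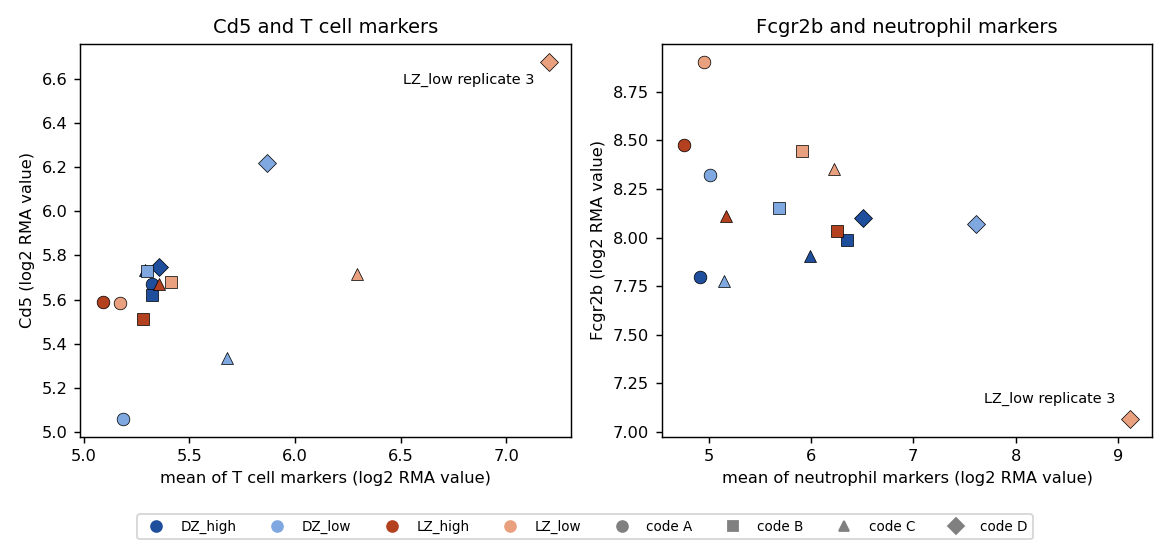
Log2 RMA level of Cd5 against the mean level of the T cell markers, and of Fcgr2b against that of the neutrophil markers, with 1 point per array, coloured by group and shaped by experiment code. LZ_low replicate 3 lies apart in both plots, with Cd5 at 6.68 and T cell markers at 7.20, and with Fcgr2b at 7.07 and neutrophil markers at 9.12.

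Without LZ_low replicate 3 the zone difference of Fcgr2b was 0.37 ± 0.12 (adjusted p = 0.489), nearly as large as those of Ptpn6 and Cd22 with all arrays, and that of Cd5 was -0.02. The affinity difference in the light zone moved from 0.02 to -0.36 ± 0.18 for Fcgr2b and from -0.32 to -0.07 for Cd5. Neither gene passed in either form. The Cd72 difference between zones was 1.39 ± 0.19 without that array.

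Zones were next compared at each affinity on its own. Among high-affinity cells Cd72 was higher in the light zone by 1.39 ± 0.26 (adjusted p = 0.186), and among low-affinity cells by 1.36 ± 0.24 (adjusted p = 0.0835). Limma passed 0 of the 8 members in both, against 0.015% and 0.01% of all genes, and 2 and 4 members had an unadjusted p under 0.05, against 559 and 703 of all genes. After a further quantile normalization Cd72 passed in both (adjusted p = 0.0323 and 0.00988). Ptpn6 was at 0.35 ± 0.15 and 0.48 ± 0.14, Cd22 at 0.30 ± 0.18 and 0.52 ± 0.17, and Inpp5d at 0.01 ± 0.20 and 0.45 ± 0.19, each pair given for high-affinity and then low-affinity cells. All 8 members lay above 0 among low-affinity cells, with a median of 0.39, and 6 among high-affinity cells, with a median of 0.14. Of all genes, 48.6% and 48.8% lay above 0 in the same order. Cd72 alone did not overlap between DZ_high and LZ_high, against 3.69% of all genes. Cd72, Cd22 and Ptpn6 did not overlap between DZ_low and LZ_low, against 1.91%. The gap was 0.65 for Cd72, 0.13 for Ptpn6 and only 0.03 for Cd22. The test of whether zone and affinity acted together, the interaction, passed 0 members and 0% of all genes in limma, with 0 members and 266 of all genes at an unadjusted p under 0.05. For Cd72 it was 0.03 ± 0.35, with a 95% interval of -0.72 to 0.78, which leaves room for a difference of either sign.

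**Figure D4:**
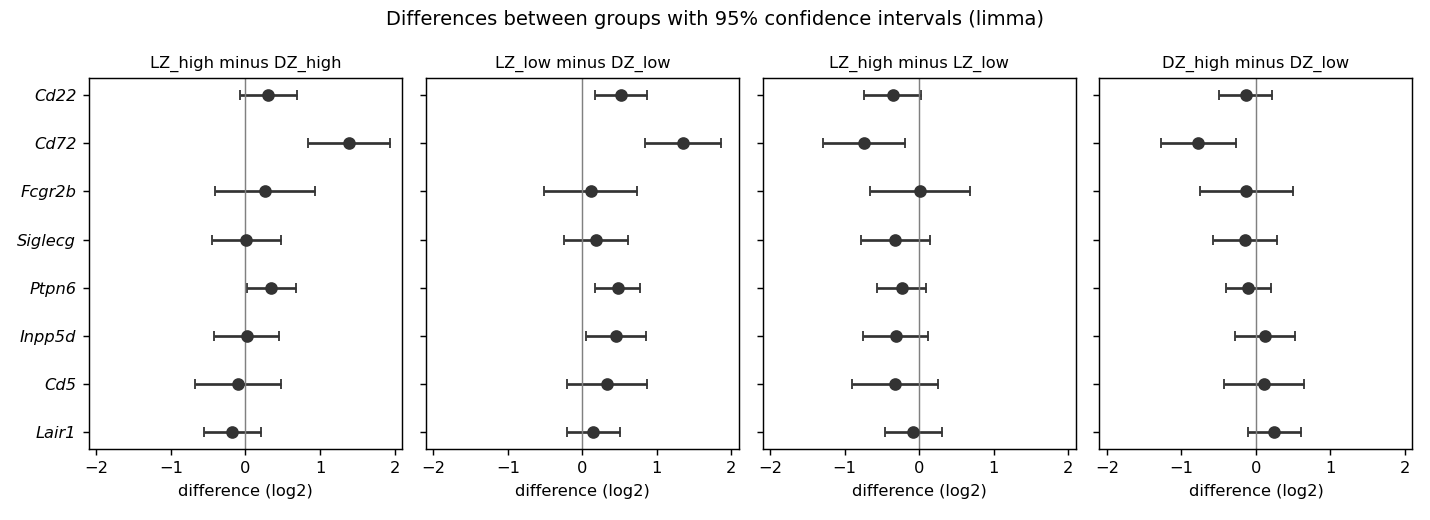
Estimated difference for each gene with its 95% interval, in log2 units, for the 4 comparisons of zone and affinity. Cd72 lies above 0 in both zone comparisons, at 1.39 and 1.36, and below 0 in both affinity comparisons, at -0.74 and -0.77.

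The next comparisons asked how affinity differed within each zone. In the light zone Cd72 was at -0.74 ± 0.26 in high-affinity relative to low-affinity cells, with a 95% interval of -1.29 to -0.19, and in the dark zone at -0.77 ± 0.24, with an interval of -1.28 to -0.26. The adjusted p was 1.00 in limma for both, and 0 members and 0% of all genes passed in either zone. Over both zones Cd72 was at -0.76 ± 0.17 (adjusted p = 0.666), and again 0 members and 0% of all genes passed. The members with an unadjusted p under 0.05 were 1 in each of the 3 comparisons, Cd72, against 797, 320 and 857 of all genes in the light zone, the dark zone and over both. In pairs of the same experiment code the Cd72 level was lower in high-affinity cells in 7 of 7, with the smallest gap, 0.08, between the dark zone arrays of code B and the largest between the light zone arrays of code C, at 9.06 against 10.56. Cd22 and Ptpn6 were lower in 6 of 7 such pairs. The 3 light zone pairs leave out LZ_low replicate 3. In them Fcgr2b was lower in 3 of 3, with differences of -0.43 to -0.24. Inpp5d was also lower in 3 of 3, with differences of -0.62 to -0.20. In the 4 dark zone pairs each of these genes was higher in 2 and lower in 2. The differences there were -0.53 to 0.13 for Fcgr2b and -0.36 to 0.65 for Inpp5d. In the light zone 7 of 8 members lay below 0, with a median of -0.32, and in the dark zone 5 of 8, with a median of -0.12. Of all genes, 49.9% lay above 0 in the light zone and 50.4% in the dark zone, with medians of -0.0003 and 0.0015. The activating components of the receptor pathway, given below, also lay below 0 in the light zone in 19 of 21 cases. Cd22 and Cd72 did not overlap between LZ_high and LZ_low, against 4.55% of all genes, and Cd72 did not overlap between DZ_high and DZ_low, against 1.11%. The separation of Cd22 in the light zone spanned 0.01, from a highest LZ_high array of 11.12 to a lowest LZ_low array of 11.13.

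Sort marker genes and cell type markers were read beside the Cd72 differences by affinity. The gate gene Cd86 was at -0.64 ± 0.15 in DZ_high relative to DZ_low cells, ranking 2 by p among all genes without passing limma (adjusted p = 1.00), and at -0.07 ± 0.16 in the light zone. Its level was 9.41, 9.58, 9.27 and 10.00 in DZ_high and 10.28, 10.00, 10.12 and 10.41 in DZ_low, and Cd72 was also lower in DZ_high. The other gate gene, Cxcr4, was at -0.12 ± 0.21 in the same dark zone comparison. It was at -0.25 ± 0.23 in the light zone and passed in neither. Plasma cell markers had a mean level of 7.37 to 7.66 in DZ_high, 7.04 to 7.39 in DZ_low, 7.03 to 7.46 in LZ_high and 6.88 to 7.21 in LZ_low arrays, an order of medians opposite to that of Cd72 except that DZ_low and LZ_high changed places. Of these 7 genes, 6 were higher in DZ_high than in DZ_low and 6 in LZ_high than in LZ_low, and 6 were lower in the light zone than in the dark zone. B cell markers had a mean level of 10.23 to 10.65, 10.38 to 10.84, 10.46 to 10.59 and 10.65 to 10.83 in the same order of groups. Of these 8 genes, 8 were lower in DZ_high than in DZ_low and 6 in LZ_high than in LZ_low, and 5 were higher in the light zone. The part of Cd86, of Cxcr4 and of these markers in the Cd72 values was not tested.

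The genes whose levels followed each member most closely over the 15 arrays were taken as the 3 with the highest Pearson correlation. These arrays share their experiments and groups, so the values describe the table. For Cd72 they were Fcer2a, which encodes the IgE receptor CD23 (r = 0.961), the transcription factor gene Hhex (0.910) and the aldolase gene Aldoc (0.901). For Cd22 they were Pik3ap1, an adaptor of phosphoinositide 3-kinase (0.952), the cytokine gene Lta (0.942) and Ift140 (0.930). For Ptpn6 they were Sorl1 (0.948), Ctsh (0.943) and Ubxn11 (0.935). Those of Inpp5d were Pip5k1a (0.897), a lipid kinase gene, Plekho2 (0.872) and the kinase gene Pim2 (0.870). Fcgr2b was followed by Xpr1 (0.905), Rapgef2 (0.866) and Epb41l2 (0.850), and Siglecg by Tctn1 (0.904), Rgl2 (0.883) and Rnf31 (0.869). Cd5 was followed by Rin3 (0.947), Gpr141b (0.931) and Actn1 (0.930). Lair1 was followed by Olfr1226 (0.915), Aass (0.907) and Olfr235 (0.887), 2 of which are olfactory receptor genes. Among the members themselves the highest correlations were between Cd22 and Ptpn6 (0.850), Cd72 and Ptpn6 (0.791), Ptpn6 and Inpp5d (0.760) and Cd22 and Siglecg (0.757).

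Other genes of inhibitory signalling were read from lists. In the zone comparison 0 genes of the 4 lists passed in limma. Of 18 other inhibitory receptor genes 13 lay above 0, with a median of 0.09. The highest was Pecam1, which encodes an adhesion molecule with inhibitory motifs, at 0.69 ± 0.14 (adjusted p = 0.107), higher in 7 of 7 pairs. Its level was 7.30 to 8.26 in DZ_high arrays, 8.24 to 8.61 in DZ_low, 8.34 to 8.49 in LZ_high and 8.71 to 9.52 in LZ_low. Of 24 other phosphatase and adaptor genes 17 lay above 0, with a median of 0.16, and the inositol phosphatase gene Inpp4b was highest at 0.72 ± 0.18 (adjusted p = 0.247). Of 21 activating components of the receptor pathway 13 lay above 0, with a median of 0.07, and the complement receptor gene Cr2 was highest at 0.89 ± 0.19 (adjusted p = 0.133). Of 13 ligand and sialic acid genes 6 lay above 0, with a median of -0.04. In that list Slc35a1, the transporter of sialic acid into the Golgi, was highest at 0.72 ± 0.25 (adjusted p = 0.728), while St6gal1, which makes the sialic acid linkage that CD22 binds, was at -0.34 ± 0.12 (adjusted p = 0.728). With the merged experiment code as a block 2 activating genes passed, Pik3ap1 at 0.45 ± 0.07 (adjusted p = 0.0208) and Prkcb at 0.50 ± 0.09 (adjusted p = 0.0284), and 0 genes of the other 3 lists, where 0.451% of all genes passed. With code B kept as written neither passed, with Pik3ap1 at 0.43 ± 0.09 (adjusted p = 0.145) and Prkcb at 0.54 ± 0.10 (adjusted p = 0.105). In the fit without a block the adjusted p was 0.364 for Pik3ap1 and 0.316 for Prkcb.

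When high-affinity and low-affinity light zone cells were compared, the counts above 0 were 4 of 18, 9 of 24, 2 of 21 and 4 of 13 in the same order, with medians of -0.16, -0.11, -0.40 and -0.31, and 0 passed. Pecam1 was at -0.73 ± 0.21 and Cmah, which makes the sialic acid form preferred by mouse CD22, at -1.12 ± 0.35. Cmah also had the most extreme interaction of its list, at -1.74 ± 0.48 (adjusted p = 1 in limma). Its level was 6.28, 6.96, 7.79 and 7.54 in DZ_high, 6.85, 6.40, 6.03 and 6.81 in DZ_low, 5.88, 6.05 and 5.93 in LZ_high and 6.42, 6.86, 7.24 and 7.78 in LZ_low. The 3 LZ_high arrays and DZ_low replicate 3 were the lowest of all 15. Pecam1, Inpp4b, Cr2, Slc35a1, St6gal1 and Cmah were named after their values were seen.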

How the data were processed

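Amplified RNA of 15 sorted samples was labelled for whole-transcript arrays, per the labels' protocols. The authors deposited a table of RMA values on the log2 scale with 28853 probe sets, and the submitters' processing notes name genome build mm8. For software versions, the entry is: not given in the sources used here. Of the probe sets, 21789 had 1 gene symbol, 1621 several and 5443 none. Only single-symbol probe sets were used, and of the 999 genes with more than 1 the brightest was kept, which left 19938 genes without a filter on dim ones. Limma 3.58.1 in R 4.3.3 (lmFit, eBayes) fitted 4 group means with 11 residual degrees of freedom, with Benjamini-Hochberg adjustment over all genes and a threshold of 0.05. The steps were tested on simulated data.

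The members and lists were chosen with earlier results of these data known. The named genes are the members, list genes that passed, the sort markers and the 3 most correlated genes per member, besides those stated as named after their values were seen. Arrays of different groups with the same merged experiment code shared their deviations from the group means in part (average r = 0.288, 21 pairs). Those of different codes averaged -0.0820 (63 pairs), with 21 pairs above 0.1. Deviations cancel within each group, so the averages of both kinds of pairs are tied to each other. Of the listed genes outside the cell type lists, 5 lacked a single-symbol probe set and are not analysed here. Promoters come from RefSeq. Alternatives changed the normalization, filter, probe set rule, variance model, array weights, block, arrays and threshold. Figures were drawn with matplotlib 3.10.9.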

Additional observations from a re-analysis of the deposited data

Results flagged for a closer look

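In a group of 4 arrays, an array is singled out here when its gap to the nearest other exceeds Dixon's 95% critical share of the group's range. Chance gives about 1 in 20 such cases, and 24 groups of members were tested. The Cd22 level of DZ_low replicate 3 was 11.10, above 10.65 to 10.70 on the other 3 arrays of its group. The Cd5 level of LZ_low replicate 3 was 6.68, above 5.58 to 5.71 on the others. Both arrays carry experiment code D, and neutrophil markers were highest on LZ_low replicate 3, at 9.12, and next highest on DZ_low replicate 3, at 7.61. The part of these markers in the values was not tested.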

How the results depend on the processing

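The Cd72 difference between zones passed in 28 of 28 alternatives, at 1.29 to 1.47 with adjusted p of 0.00067 to 0.0457. The number of members that passed between zones was 2 with the replicate block (Cd72 and Ptpn6, adjusted p = 0.0372) and 3 with the merged experiment block, against 1. Arrays sharing a title number had an average r of 0.227 between their deviations, above 0.1 in 15 of 21 cases. For arrays sharing a merged experiment code it was 0.288, above 0.1 in 16 of 21 cases. Title numbers 1 and 2 match codes A and B in every group, so both averages rest largely on the same pairs. They therefore cannot decide between number and code. The lowest r was -0.378 by number and -0.0966 by code. Pairs were formed by the code, and the title numbers served only as a block. Among high-affinity cells 1 member passed, against 0, after quantile normalization once more. Among low-affinity cells 1 did, against 0, after that normalization, with the experiment code as a random block and at an adjusted p under 0.1. Of 207 counts of members, 201 kept their side and 6 were higher. No called value changed sign, and 65 uncalled values did. Of all genes, 31 passed between zones, against 49 after quantile normalization, 68 with array weights, 83 with the replicate block, 90 with the merged and 78 with the random block. Leaving out 1 array gave 18 to 37. With 3 or 4 arrays a group and dim probe sets for Cd5 and Lair1, small differences were not detectable.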
